A study of Mus musculus with 17 samples.

Results

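RNA from E11 cells, a mouse podocyte line, was compared between a fractal and a round surface texture. Podocytes are the epithelial cells that wrap glomerular capillaries with branched, interlocking foot processes and hold the kidney's filtration slits between them. All cells grew on the silicone polydimethylsiloxane (PDMS). Of the 17 libraries of the study, 12 were chosen by their labels for this comparison: 6 from the high fractal texture (HF), whose pattern was drawn from tracings of healthy glomeruli in histological sections, and 6 from the round texture (RT), which is not fractal. The other 5 libraries came from PDMS without topography (NT). No genotype, treatment or culture time is given for any group, and no source used here states what separates 2 replicates of a group, so every p-value is set against the variation among these libraries, part of which may be technical. Because RT is itself textured, HF minus RT is the difference that accompanies the fractal form on a surface that already has relief.

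Cells read surface relief through integrin adhesions, actomyosin tension and membrane curvature, and pass it on to transcriptional regulators such as YAP and TAZ, serum response factor and Notch. In podocytes the actin skeleton carries the foot processes, and the slit diaphragm joins neighbouring processes. Podocytes also secrete basement membrane, growth factors, complement components and vasoactive peptides that act on the neighbouring capillary cells.

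Total counts ran from 15.7 to 24.1 M in RT and from 16.2 to 17.8 M in HF. Depth, genes detected, the share of the 10 most abundant genes and the mitochondrial share went through 4 exact permutation tests (two-sided), and the lowest adjusted p was 0.463. Of 12 podocyte markers, 9 exceeded 1 CPM (counts per M of the TMM-scaled library total) in both groups, among them Synpo at 274 ± 5.87 CPM in RT and 263 ± 8.18 CPM in HF (SD, n = 6) and Wt1 at 96.9 ± 2.96 CPM and 103 ± 5.22 CPM (SD, n = 6). Ptpro was below 0.1 CPM on average and Tcf21 was at 0 in every library. Of 11 renal tubule markers, 6 also exceeded 1 CPM in both groups, with a summed level of 1857 to 2042 CPM in RT and 1790 to 2137 CPM in HF, and 2, Slc34a1 and Aqp2, had no count. Parietal epithelial markers summed to 1189 to 1247 CPM in RT and 1140 to 1245 CPM in HF, with 5 of 7 over 1 CPM and 0 under 0.1 CPM. Markers of mesangium, pericytes and smooth muscle summed to 780 to 857 and 809 to 886 CPM, with 3 of 7 over 1 CPM. Endothelial markers summed to at most 3.65 CPM, with 3 of 7 under 0.1 CPM and Kdr at 0, and fibroblast markers to at most 59.5 CPM. Immune markers summed to at most 59.3 CPM, nearly all of it from Csf1r, with 4 of 6 under 0.1 CPM and Adgre1, Cd3e and Itgam at 0. Of these markers only Ncam1, on the parietal list, differed between HF and RT. The label podocyte therefore stands here with Tcf21 at 0 and with tubular transcripts present in both groups at overlapping levels.

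Few genes differed between the fractal and the round texture, and by small amounts. Of 15196 genes tested, 32 differed at an adjusted p of at most 0.05 (0.211%), of which 20 were higher on HF (0.132%) and 12 were lower (0.0790%), by edgeR's quasi-likelihood test with Benjamini-Hochberg adjustment. Their median size was 1.21-fold, and 1 gene, Dio2, reached 2-fold. In 25 of the 32 genes the 6 HF and 6 RT libraries did not overlap, beside 147 of all genes tested (0.967%). These are RNA levels in bulk cultures, so fewer cells of a kind and less RNA per cell cannot be told apart. Over the 1000 most variable genes, 10.7% of the variance among the 12 libraries lay between the surfaces (exact one-sided permutation p = 0.0411 over 924 splits). That p rose above 0.05 when any of 9 of the 12 libraries was left out, to 0.158 at most, without RT 3. Any split of 12 libraries into 2 groups takes part of the variance, so the 10.7% is not the size of an effect of the surfaces. The plot of all genes also shows genes that did not pass, such as Gm10705 at -1.75 and Cltrn at -1.74, below every called gene.

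**Figure D1:**
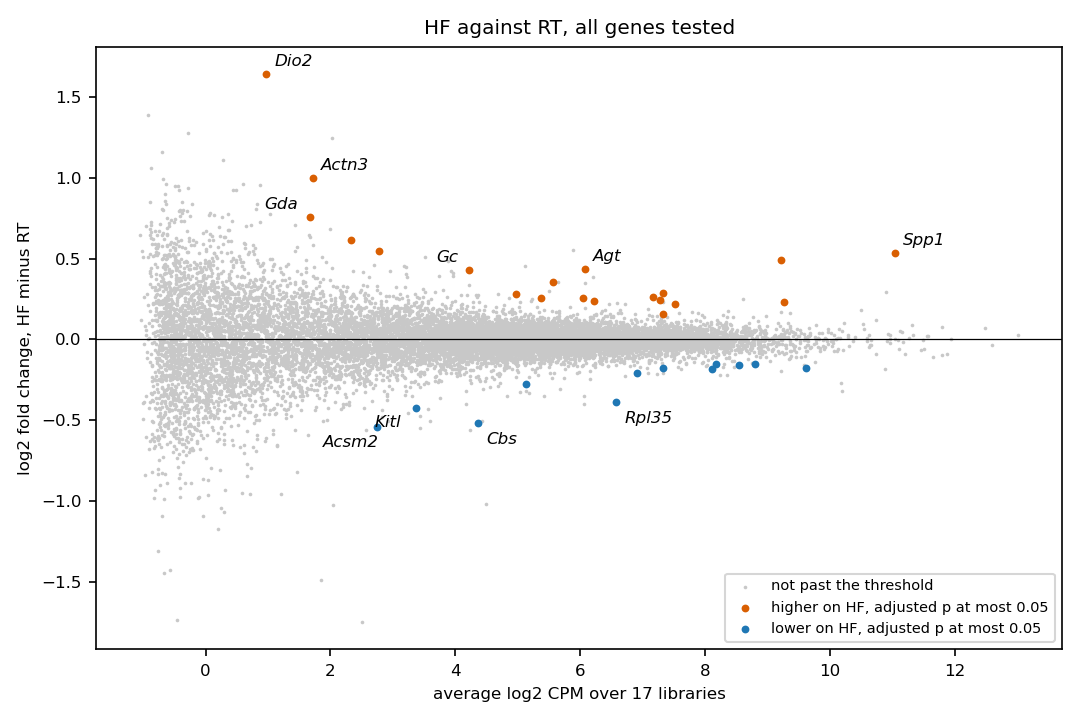
Log2 fold change of HF minus RT (vertical axis) against average log2 CPM (horizontal axis) for the 15196 genes tested, with the 20 genes higher on HF in orange and the 12 lower in blue. The median over all genes is -0.00, and the labelled genes include Dio2 at 1.64, the highest of all, and Cbs at -0.52. The lowest of all is Gm10705 at -1.75, which did not pass.

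In the higher genes 1 HF library stood closer to RT than the others. HF 3 had the lowest value of the 6 HF libraries in 13 of the 20 higher genes, and among the RT libraries RT 5 had the highest in 9 of these 20. In the 12 lower genes, HF 2 and HF 3 had the highest HF value in 4 each, and RT 4 and RT 6 the lowest RT value in 4 each. Without HF 3 the number of genes called rose from 32 to 89. Leaving out RT 1 or RT 3 lowered it to 14 each, and without RT 2, HF 1, HF 4, HF 5 or HF 6 it was 18, 18, 18, 16 and 18. The count also moved with the flat-surface libraries: it was 56, 31, 25, 25 and 70 without NT 1, NT 2, NT 3, NT 4 and NT 5 in turn, and 113 with NT left out altogether. Of the 31 genes described, 13 passed the threshold whichever library was left out, namely Cbs, Dio2, Agt, Rpl35, Ndrg1, C1ra, Tmem8, Adamtsl4, Actn3, Gda, Dkk3, St3gal1 and Ncam1. The other 18 lost it in at least 1 such fit, which is stated beside each.

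The complement genes C1ra, C1rb and C1s1 were higher on HF. C1r and C1s are the serine proteases that C1q activates to start the classical pathway, and C3 is the central component that all pathways cleave. Of 18 complement genes tested, these 3 were higher, 0 were lower, and the median log2 fold change was 0.04, beside -0.00 over all genes. This list was written after earlier results of these data were known, so its count is not independent evidence. C1ra measured 131 to 148 CPM (median 137) on RT and 143 to 176 CPM (median 164) on HF (log2 fold change 0.24 ± 0.04 SE, adjusted p = 0.00124). A single HF library, HF 3, fell inside the RT range for C1ra, and the other HF libraries lay above every RT library. C1s1 ran from 159.7 to 174 CPM (median 163) on RT and from 168 to 222 CPM (median 192) on HF (log2 fold change 0.22 ± 0.04 SE, adjusted p = 0.018), and again HF 3 alone lay within the range of RT. It missed the threshold without RT 1, RT 2 or RT 3 (adjusted p up to 0.0684), and with the 12 HF and RT libraries alone (adjusted p = 0.069). C1rb, a close copy of C1ra, showed 129.5 to 153 CPM (median 139) on RT and 143 to 195 CPM (median 169) on HF (log2 fold change 0.29 ± 0.06 SE, adjusted p = 0.0361). It passed the threshold in 6 of the 17 fits that left out 1 library, those without NT 1, NT 2, RT 5, HF 2, HF 3 or HF 4 (adjusted p up to 0.0998 in the others), and it missed with the 12 libraries alone (adjusted p = 0.129). Of the 100-base windows of their longest transcripts, 35.9% of C1ra and 42.7% of C1rb occur in another gene's transcripts, chiefly each other's, so how reads were divided between the 2 genes is uncertain. For C1s1, 7.90% of the windows occur in another gene's transcripts, chiefly those of C1s2. Of its exon bases, 18.4% overlap another annotated gene.

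C3, further down the cascade, did not pass the test, at 1545 to 1701 CPM (median 1614) on RT and 1701 to 2388 CPM (median 1951) on HF (log2 fold change 0.29 ± 0.08 SE, adjusted p = 0.216). On the flat surface C1ra, C1s1 and C1rb were near their HF level: C1ra stood at 164 ± 5.19 CPM, C1s1 at 196 ± 7.04 CPM and C1rb at 171 ± 4.54 CPM (SD, n = 5). RT minus NT was -0.25, adjusted p = 0.000271 for C1ra, -0.24, adjusted p = 0.00124 for C1s1 and -0.29, adjusted p = 0.00724 for C1rb. HF minus NT was -0.00, adjusted p = 0.988 for C1ra, -0.02, adjusted p = 0.875 for C1s1 and 0.00, adjusted p = 0.998 for C1rb. RT thus held the lowest level of the surfaces for these 3 genes. They were picked for a gap between HF and RT, so their p-values against NT reuse the same libraries and are not independent evidence.

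The 250 bases before the annotated start of C1ra, C1rb and C1s1 are shown because the 3 genes moved together, and those of Dio2 and Edn1 because they were higher on HF and hold the same short motif. They come from RefSeq's table for build GRCm38.p6, an earlier build than the GRCm39 named in the processing notes. Capitals mark GGAATG, the core motif bound by TEAD factors, the DNA-binding partners of YAP and TAZ, or its reverse complement.
C1ra (chr6:124512371-124512620, plus strand): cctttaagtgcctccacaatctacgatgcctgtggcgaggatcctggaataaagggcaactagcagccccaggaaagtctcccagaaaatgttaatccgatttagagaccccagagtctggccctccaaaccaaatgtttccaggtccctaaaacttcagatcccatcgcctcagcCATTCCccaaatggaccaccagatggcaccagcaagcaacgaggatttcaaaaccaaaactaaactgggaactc
C1rb (chr6:124570180-124570429, plus strand): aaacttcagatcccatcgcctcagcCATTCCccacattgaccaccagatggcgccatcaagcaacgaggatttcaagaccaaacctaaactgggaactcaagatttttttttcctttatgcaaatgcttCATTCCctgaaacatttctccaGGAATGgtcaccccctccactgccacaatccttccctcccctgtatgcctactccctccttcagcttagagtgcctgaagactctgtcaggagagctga
C1s1 (chr6:124542360-124542609, minus strand): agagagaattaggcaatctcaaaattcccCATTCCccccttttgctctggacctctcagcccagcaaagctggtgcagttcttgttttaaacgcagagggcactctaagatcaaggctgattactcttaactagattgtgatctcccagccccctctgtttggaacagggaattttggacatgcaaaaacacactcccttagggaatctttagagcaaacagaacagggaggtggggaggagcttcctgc
Dio2 (chr12:90739039-90739288, minus strand): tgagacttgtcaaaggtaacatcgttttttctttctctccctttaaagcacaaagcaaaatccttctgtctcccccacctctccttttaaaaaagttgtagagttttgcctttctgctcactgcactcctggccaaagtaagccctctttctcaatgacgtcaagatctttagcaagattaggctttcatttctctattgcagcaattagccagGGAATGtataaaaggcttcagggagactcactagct
Edn1 (chr13:42301226-42301475, plus strand): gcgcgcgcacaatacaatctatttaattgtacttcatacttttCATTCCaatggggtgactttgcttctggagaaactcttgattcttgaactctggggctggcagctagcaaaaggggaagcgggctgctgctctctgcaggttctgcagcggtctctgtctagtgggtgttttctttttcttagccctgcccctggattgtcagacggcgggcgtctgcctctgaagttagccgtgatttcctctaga
All are written 5′ to 3′ on the gene's own strand, and the longest run that the C1ra and C1rb stretches share is 34 bases. The motif begins 74 bases before the start in C1ra, 225, 121 and 99 bases before it in C1rb, 221 in C1s1, 36 in Dio2 and 207 in Edn1. The sites at 74 in C1ra and at 225 in C1rb lie in that shared run. These genes are therefore not independent occurrences, though both are counted below. Of the 32 genes, 21 had an entry in the table, and GGAATG on either strand occurred in 5 of 12 higher genes and in 1 of 9 lower genes (Lgr4), beside 12.6% of all promoters of this length and 10.6% of those of tested genes. It was singled out from 9 motifs after their counts were seen, and a match is a description of the letters only. The other 8, on both strands, were found in the called promoters and in all promoters as follows. TGGGAA (RBPJ) occurred in 5 of 21 and in 21.5% of all. TTCNNNGAA (the interferon gamma-activated site) occurred in 3 and in 7.14%, and the interferon-stimulated response element in 2 and in 3.05%. TGANTCA (AP-1) occurred in 0 and in 6.85%, and TTGCNNAA (C/EBP) in 5 and in 9.55%. ACGTG (hypoxia response) occurred in 3 and in 16.5%, CACGTG (E-box), which contains it, in 1 and in 6.04%, and the CArG box in 1 and in 1.41%.

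Agt and Edn1, which encode precursors of vasoactive peptides, were higher on HF. Agt gives angiotensinogen, the sole precursor of the angiotensins, and Edn1 gives endothelin-1, a vasoconstrictor that podocytes and endothelial cells release. Of 12 tested genes of the renin, angiotensin, kinin and endothelin systems, 2 were higher and 0 lower, with a median of 0.03. Agt ran from 52.8 to 66.5 CPM (median 61.5) on RT and from 72.9 to 92.1 CPM (median 81.7) on HF, 35.6% higher (log2 fold change 0.44 ± 0.06 SE, adjusted p = 0.000651). Every HF library lay above every RT library, and Agt kept its call whichever library was left out. Edn1 measured 23.9 to 31.4 CPM (median 30.0) on RT and 32.5 to 38.9 CPM (median 35.4) on HF, again without overlap (log2 fold change 0.28 ± 0.06 SE, adjusted p = 0.0482), although RT 1, at 23.9 CPM, lay well below the other RT libraries. Edn1 passed the threshold in 5 of the 17 fits that left out 1 library, those without NT 1, NT 2, NT 5, HF 2 or HF 3 (adjusted p up to 0.167 in the others). For both genes the flat surface was at the level of RT: Agt stood at 57.7 ± 4.08 CPM and Edn1 at 28.1 ± 2.89 CPM on NT (SD, n = 5). HF minus NT was 0.50, adjusted p = 9.67e-05 for Agt and 0.34, adjusted p = 0.00377 for Edn1.

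The other enzymes of these systems that were tested and are described did not pass. Mme (neprilysin) gave -0.22, adjusted p = 0.304, Enpep (aminopeptidase A, which cleaves angiotensin II) 0.03, adjusted p = 0.905, and Ece1 (endothelin-converting enzyme) 0.04, adjusted p = 0.895, each as a log2 fold change. Mme passed, lower on HF, by DESeq2 (adjusted p = 0.0498) and without HF 3 (adjusted p = 0.0477). The remaining 7 tested members, Ece2, Agtrap, Nr3c2, Lnpep, Anpep, Atp6ap2 and Hsd11b2, lay between -0.04 and 0.19 on the log2 scale.

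**Figure D2:**
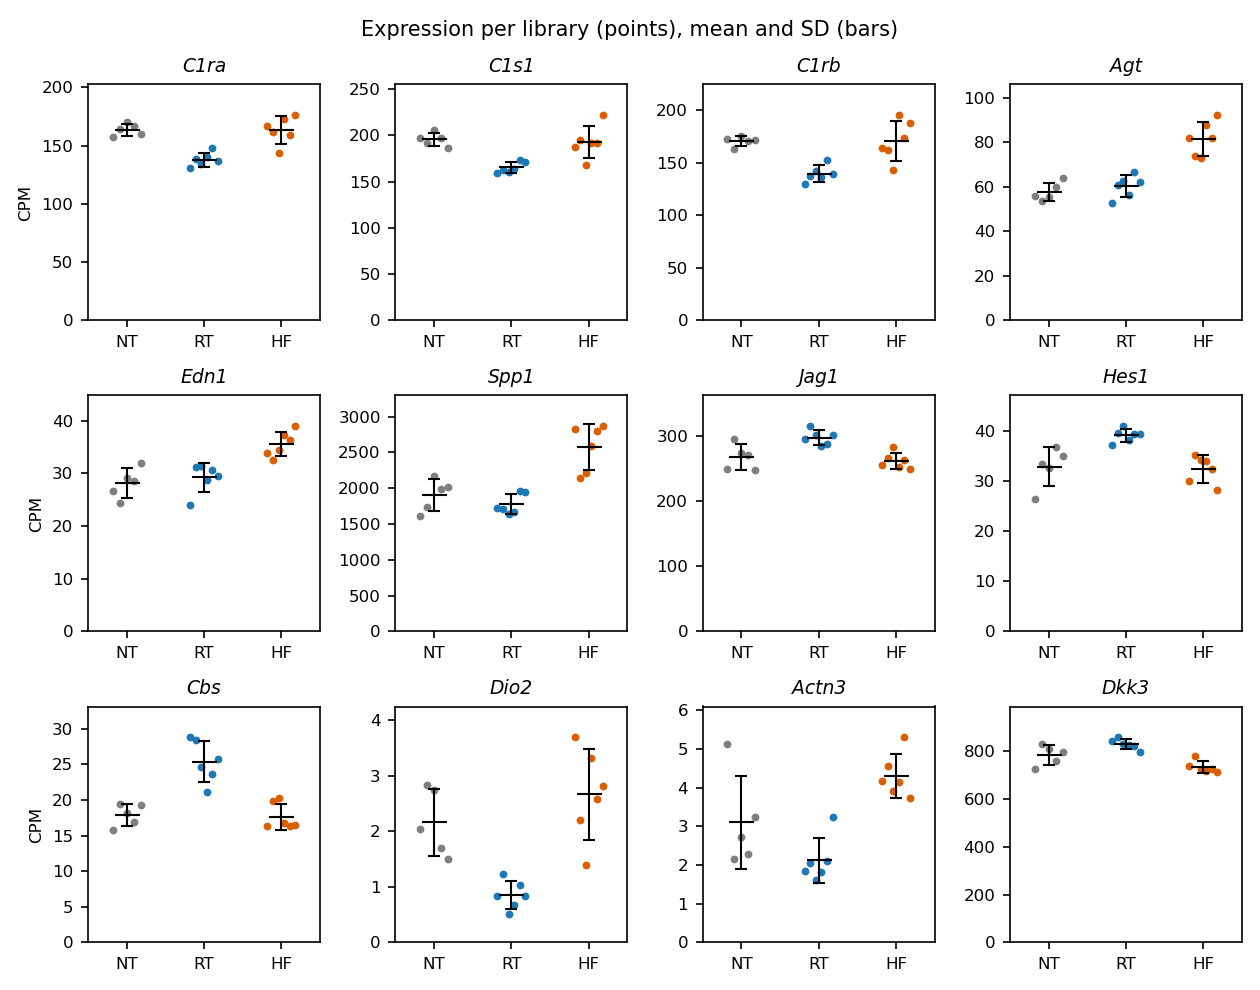
CPM of 12 genes (vertical axes, starting at 0) in each library of NT, RT and HF, with points for libraries and bars for mean and SD (n = 5, 6 and 6). Agt, Edn1 and Spp1 are raised on HF alone, while C1ra, C1s1, C1rb, Jag1, Hes1, Cbs and Dio2 have NT close to HF.

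The Notch ligand Jag1 and the Notch target Hes1 were lower on HF. Jag1 is a membrane ligand of Notch receptors and Hes1 is a transcriptional repressor that Notch signalling induces. Of 37 tested Notch genes, 0 were higher, 2 were lower, and the median was -0.01. Jag1 ran from 284 to 315 CPM (median 299) on RT and from 249 to 283 CPM (median 259) on HF (log2 fold change -0.19 ± 0.04 SE, adjusted p = 0.0252), and the ranges just failed to touch. Jag1 missed the threshold without RT 1, RT 2, RT 3, RT 6, HF 1, HF 4, HF 5 or HF 6 (adjusted p up to 0.0947). Hes1 measured 37.2 to 41.0 CPM (median 39.5) on RT and 28.2 to 35.3 CPM (median 33.3) on HF, without overlap (log2 fold change -0.27 ± 0.06 SE, adjusted p = 0.042). Hes1 passed the threshold in 5 of the 17 fits that left out 1 library, those without NT 1, NT 4, NT 5, HF 2 or HF 3 (adjusted p up to 0.147 in the others). On NT, Jag1 was at 267 ± 19.8 CPM and Hes1 at 32.9 ± 3.93 CPM (SD, n = 5). RT minus NT was 0.15, adjusted p = 0.0245 for Jag1 and 0.25, adjusted p = 0.0178 for Hes1, while HF minus NT was -0.03, adjusted p = 0.79 and -0.02, adjusted p = 0.926.

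The receptors and the rest of the pathway gave no call. Notch1 gave 0.07, adjusted p = 0.805, and Rbpj, the DNA-binding partner of activated Notch, 0.03, adjusted p = 0.915. Psen2, a catalytic subunit of the gamma-secretase that releases the Notch fragment, gave -0.17, adjusted p = 0.295, Dtx3, a ubiquitin ligase of the Deltex family, 0.10, adjusted p = 0.441, and Lfng, which glycosylates the receptors, -0.15, adjusted p = 0.578. Among the other ligands and receptors, Dll1 gave -0.19, Jag2 -0.03, Notch2 0.00, Notch3 0.10 and Notch4 0.12, and among other targets Hey1 gave -0.04, Hes6 -0.04 and Hey2 -0.56, with adjusted p from 0.697 to 0.996. The remaining 22 members lay between -0.14 and 0.17.

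Dkk3 and Lgr4, both on the Wnt list, were also lower. Of 39 Wnt genes tested, 0 were higher and 2 lower, with a median of -0.04. Dkk3, a secreted member of the Dickkopf family, ran from 794 to 856 CPM (median 827) on RT and from 709 to 779.5 CPM (median 723) on HF (log2 fold change -0.18 ± 0.03 SE, adjusted p = 0.0102), without overlap, and passed whichever library was left out. Lgr4, a receptor for R-spondins that strengthens Wnt signalling, measured 449 to 494 CPM (median 463) on RT and 404 to 436 CPM (median 423) on HF (log2 fold change -0.15 ± 0.03 SE, adjusted p = 0.0474), also without overlap. Lgr4 passed the threshold in 5 of the 17 fits that left out 1 library, those without NT 1, NT 2, NT 5, RT 4 or RT 5 (adjusted p up to 0.133 in the others), and missed with relative log expression scaling (adjusted p = 0.052). Both genes lay between the 2 textures on NT, Dkk3 at 782 ± 40.9 CPM and Lgr4 at 450.3 ± 27.8 CPM (SD, n = 5). Rnf43, which removes Frizzled receptors from the surface, gave -0.39, adjusted p = 0.258, and the receptor Fzd5 gave -0.17, adjusted p = 0.258.

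Kitl, the stem cell factor that binds the receptor Kit, was at 11.6 to 13.4 CPM (median 12.3) on RT and had a mean of 9.20 ± 1.32 CPM (SD, n = 6) on HF (log2 fold change -0.43 ± 0.09 SE, adjusted p = 0.0252), with every HF library below every RT library. Kitl missed the threshold without RT 1, RT 2, RT 3, HF 1, HF 2 or HF 5 (adjusted p up to 0.0957). It was the single member called among 47 growth factor and guidance ligands (0 higher, 1 lower, median -0.03). NT stood at 8.73 ± 0.914 CPM (SD, n = 5), below both textures, and RT minus NT was 0.50, adjusted p = 0.00119. Gdnf, a neurotrophic factor of the developing kidney, gave 0.42, adjusted p = 0.147, and Vegfa, the endothelial growth factor podocytes secrete, 0.08, adjusted p = 0.529. Of 38 genes of TGF-beta, BMP and Id signalling and of 31 EGF receptor ligands and ERK feedback genes, 0 passed (medians -0.04 and 0.01), Tgfb2 giving -0.15, adjusted p = 0.258.

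Matrix and adhesion genes gave calls in both directions. Spp1 encodes osteopontin, a secreted phosphoprotein that binds integrins, and Adamtsl4 a secreted protein of microfibrils. Of 45 genes of fibrillar and elastic matrix, 1 was higher (Spp1) and 1 lower (Adamtsl4). Spp1 was at 1641 to 1959.8 CPM (median 1717) on RT and 2144 to 2864 CPM (median 2694) on HF (log2 fold change 0.54 ± 0.09 SE, adjusted p = 0.0252), 44.9% higher and without overlap. Spp1 missed the threshold without RT 1, RT 2, RT 3, RT 4, HF 1, HF 4, HF 5 or HF 6 (adjusted p up to 0.0775), and 18.8% of its exon bases overlap another annotated gene. On NT it measured 1905 ± 224 CPM (SD, n = 5), and HF minus NT was 0.43, adjusted p = 0.0262. Adamtsl4 ran from 165 to 188 CPM (median 173) on RT and from 149 to 157 CPM (median 154) on HF (log2 fold change -0.18 ± 0.03 SE, adjusted p = 0.00656), the HF libraries being the tighter group, and NT matched HF at 152 ± 3.54 CPM (SD, n = 5).

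The rest of the matrix list did not reach the threshold. In this list 12 members had an unadjusted p under 0.05, and 11 of 45 members had a positive log2 fold change (median -0.05), as had 6 of 24 basement membrane genes (median -0.06, 0 called), beside 7537 of all 15196 genes. Among them Sparc, a collagen-binding glycoprotein, gave -0.18, adjusted p = 0.177, and Tnc (tenascin C) -0.14, adjusted p = 0.356. Both passed, lower on HF, with the HF and RT libraries alone (adjusted p = 0.0261 for Sparc and 0.0311 for Tnc) and with every gene that had a count (0.0362 and 0.00755). Col4a1, a chain of the basement membrane's collagen IV, gave -0.32, adjusted p = 0.502, and its RT and HF libraries did not overlap. Col18a1 gave -0.11, adjusted p = 0.339. Of 29 matrix proteases and inhibitors 0 passed (median -0.03).

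The adhesion molecules Ncam1 and Cdh6 were lower. Ncam1, the neural cell adhesion molecule, binds its like on neighbouring cells, and Cdh6 is a cadherin of the early nephron. Of 25 genes of cadherins, claudins and junctions, 0 were higher and 2 lower (median -0.02). Ncam1 ran from 289 to 296 CPM (median 294) on RT and from 257 to 279 CPM (median 263) on HF, so the highest HF library lay below the lowest RT library (log2 fold change -0.15 ± 0.03 SE, adjusted p = 0.0109). NT, at 310.1 ± 7.65 CPM (SD, n = 5), was above both, and HF minus NT was -0.23, adjusted p = 2.53e-05. Cdh6 measured 378 to 414 CPM (median 408) on RT and 345 to 375 CPM (median 359) on HF, without overlap (log2 fold change -0.16 ± 0.04 SE, adjusted p = 0.0474), and NT matched HF at 361 ± 22.7 CPM (SD, n = 5). Cdh6 passed the threshold in 6 of the 17 fits that left out 1 library, those without NT 1, NT 2, NT 5, RT 4, RT 5 or HF 3 (adjusted p up to 0.146 in the others), and missed with relative log expression scaling (adjusted p = 0.052). Jup (plakoglobin), a catenin of junctions, gave -0.16, adjusted p = 0.271. Of 17 integrin genes and 35 focal adhesion adaptors, 0 passed (medians 0.04 and -0.01). Itgb3, the beta subunit of the vitronectin receptor, came nearest among the integrins, at 1.79 to 2.92 CPM (median 2.71) on RT and 3.33 to 4.90 CPM (median 3.69) on HF (log2 fold change 0.64 ± 0.16 SE, adjusted p = 0.0807).

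The cytoskeleton gave a single call. Actn3 encodes the alpha-actinin of fast muscle fibres, which crosslinks actin, whereas Actn4 is the alpha-actinin of foot processes whose mutation causes glomerular disease. Actn3 was scarce, at 1.63 to 3.25 CPM (median 1.95) on RT and 3.74 to 5.31 CPM (median 4.16) on HF (log2 fold change 1.00 ± 0.19 SE, adjusted p = 0.00855), with every HF library above every RT library and RT 6 the highest of RT. It passed whichever library was left out, and NT spanned the interval from 2.17 to 5.13 CPM. Of 57 genes of actin crosslinking and actomyosin, 1 was higher and 0 lower (median -0.02), and Actn4 gave 0.04, adjusted p = 0.84, Actn1 -0.10, adjusted p = 0.248 and Evl -0.13, adjusted p = 0.195.

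Transcriptional targets of tension gave no call. Of 28 targets of serum response factor and its cofactors MRTF, 0 passed (7 positive, median -0.05), with Filip1l nearest at -0.16, adjusted p = 0.0512, then Fhl1 at -0.35, adjusted p = 0.114, and Tagln at -0.35, adjusted p = 0.258. Filip1l passed without each of 5 libraries in turn and by DESeq2 (adjusted p = 0.0144). Of 30 YAP and TAZ targets, 0 passed (9 positive, median -0.05), F3 giving -0.15, adjusted p = 0.217 and Ajuba -0.10, adjusted p = 0.38. No gene passed among 21 genes of mechanosensitive channels, lamins and nuclear linkers (median 0.01), 34 of caveolae and membrane curvature (median -0.02) and 31 of intermediate filaments and microtubules (median -0.00).

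Podocyte genes gave no call in the reported fit. Of 34 tested genes of the slit diaphragm and podocyte identity, 0 passed, 17 were positive and the median was 0.00. With the replicate number as a block, 0 were higher and 2 lower. With that block on HF and RT alone, 1 was higher and 4 lower. These fits called 125 and 298 genes in all. Nphs1, encoding nephrin of the slit diaphragm, measured 3.45 to 5.55 CPM (median 4.91) on RT and 3.91 to 6.42 CPM (median 4.90) on HF (log2 fold change 0.12 ± 0.14 SE, adjusted p = 0.911), with overlapping groups. Synpo (synaptopodin) gave -0.06, adjusted p = 0.76 and Wt1, a transcription factor of the podocyte lineage, 0.08, adjusted p = 0.506. Podxl, the sialylated mucin of the podocyte's apical surface, measured 136 to 148 CPM (median 142) on RT and 112 to 138 CPM (median 126) on HF (log2 fold change -0.17 ± 0.04 SE, adjusted p = 0.0807), and its adjusted p was 0.0402 by DESeq2 and 0.0311 with the 12 libraries alone. Col4a3, a collagen IV chain of the mature basement membrane, gave -0.28, adjusted p = 0.908.

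**Figure D3:**
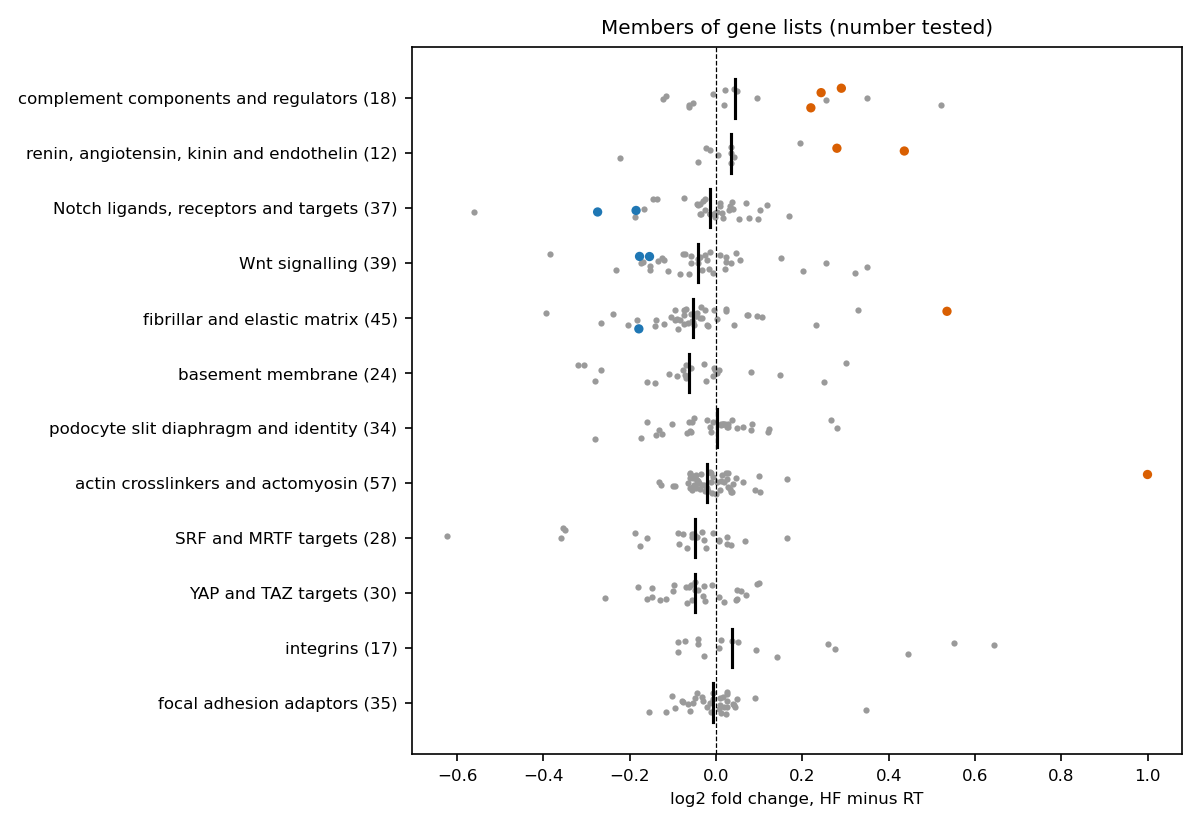
Log2 fold change of HF minus RT (horizontal axis) for the tested members of 12 gene lists (rows, number tested in parentheses). Grey points did not pass, orange points were called higher and blue points lower, black ticks are list medians and the dashed line is the median of all genes; calls are few in each row, with 3 in the complement row and 2 in the Notch, Wnt, matrix and renin rows.

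St3gal1, Chst2 and Hexa, enzymes that build or degrade glycans, were higher. St3gal1 adds sialic acid to O-glycans and was called as 1 of 21 genes of sialic acid handling (0 lower, median -0.02), at 37.6 to 45.9 CPM (median 41.8) on RT and 49.5 to 57.3 CPM (median 53.2) on HF, without overlap (log2 fold change 0.36 ± 0.06 SE, adjusted p = 0.0107). It passed whichever library was left out, and St3gal2, of the same family, gave -0.12, adjusted p = 0.233. Chst2, which sulfates N-acetylglucosamine, measured 32.8 to 39.9 CPM (median 38.3) on RT and 41.3 to 49.7 CPM (median 44.3) on HF, without overlap (log2 fold change 0.26 ± 0.05 SE, adjusted p = 0.0222). Chst2 missed the threshold without RT 1, RT 3, HF 4, HF 5 or HF 6 (adjusted p up to 0.0909). Hexa, the alpha subunit of lysosomal hexosaminidase, was the single call among 38 lysosome and autophagy genes (1 higher, 0 lower, median 0.00), at 149 to 162 CPM (median 158) on RT and 166 to 185 CPM (median 174) on HF (log2 fold change 0.16 ± 0.03 SE, adjusted p = 0.0334). Hexa missed the threshold without RT 1, RT 2, RT 3, RT 4, HF 1, HF 4, HF 5 or HF 6 (adjusted p up to 0.119), and NT, at 147 ± 6.39 CPM (SD, n = 5), was below both textures, HF minus NT being 0.25, adjusted p = 9.67e-05. Ctsl, a lysosomal protease, gave -0.11, adjusted p = 0.348. Colec12, a scavenger receptor of the collectin family, ran from 56.5 to 62.9 CPM (median 59.5) on RT and from 60.4 to 77.9 CPM (median 72.2) on HF, with HF 3 inside the RT range (log2 fold change 0.26 ± 0.05 SE, adjusted p = 0.018). Colec12 missed the threshold without RT 1, RT 3, HF 1, HF 5 or HF 6 (adjusted p up to 0.0721). Of 29 heparan sulfate genes, 0 passed (median 0.00), with Hpse (heparanase) at 0.45, adjusted p = 0.114.

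Among the 32 genes past the threshold, Dio2 had the largest difference. It encodes the deiodinase that turns thyroxine into the active hormone triiodothyronine inside cells. Dio2 measured 0.505 to 1.24 CPM (median 0.832) on RT and 1.40 to 3.69 CPM (median 2.70) on HF, 3.11-fold higher and without overlap (log2 fold change 1.64 ± 0.24 SE, adjusted p = 0.000621). The highest RT library (RT 2) was near the lowest HF library (HF 3), and the call held whichever library was left out. NT stood at 2.17 ± 0.602 CPM (SD, n = 5), and RT minus NT was -1.34, adjusted p = 0.00142, beside 0.30, adjusted p = 0.607 for HF minus NT. It was the single call among 14 genes of thyroid hormone handling (0 lower, median 0.02), Thra, a nuclear receptor of the hormone, giving 0.10, adjusted p = 0.383.

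Cbs, cystathionine beta-synthase, commits homocysteine to cysteine synthesis and had the smallest p. Its RT libraries lay at 21.1 to 28.8 CPM (median 25.2) and its HF libraries at 16.3 to 20.2 CPM (median 16.6), 30.4% lower without overlap (log2 fold change -0.52 ± 0.08 SE, adjusted p = 0.000621). NT matched HF at 17.9 ± 1.58 CPM (SD, n = 5), and RT minus NT was 0.50, adjusted p = 0.00016. Of 41 genes of methionine, transsulfuration and glutathione, 0 were higher and 1, Cbs, lower (median -0.01), and Chac2, which degrades glutathione, gave -0.29, adjusted p = 0.315. Gpx3, the secreted glutathione peroxidase, gave 0.18, adjusted p = 0.124.

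Gda and Aox3 were higher and Acsm2 lower. Gda, guanine deaminase, was at 1.94 to 2.60 CPM (median 2.33) on RT and 3.09 to 4.77 CPM (median 3.82) on HF, without overlap (log2 fold change 0.76 ± 0.14 SE, adjusted p = 0.00855), and was the single call among 24 purine genes (0 lower, median 0.01), Ampd2 (AMP deaminase) giving 0.15, adjusted p = 0.11. Aox3, an aldehyde oxidase, measured 2.93 to 4.86 CPM (median 3.62) on RT and 3.91 to 7.30 CPM (median 5.68) on HF (log2 fold change 0.61 ± 0.14 SE, adjusted p = 0.0478), with HF 3 inside the RT range. Aox3 passed the threshold in 4 of the 17 fits that left out 1 library, those without NT 1, NT 5, RT 1 or HF 3 (adjusted p up to 0.192 in the others), and missed by limma voom (adjusted p = 0.0627). Acsm2, a mitochondrial acyl-CoA synthetase of the proximal tubule, was lower, at 7.23 to 10.7 CPM (median 8.75) on RT and 4.78 to 7.40 CPM (median 5.91) on HF (log2 fold change -0.54 ± 0.12 SE, adjusted p = 0.0342), with HF 5 inside the RT range. Acsm2 missed the threshold without RT 1, RT 3, RT 5, RT 6, HF 1, HF 2, HF 3 or HF 4 (adjusted p up to 0.121). Its NT level was lower still, at 4.31 ± 0.791 CPM (SD, n = 5), RT minus NT being 1.03, adjusted p = 5.93e-06 and HF minus NT 0.49, adjusted p = 0.0422.

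Ndrg1, Gc, Cndp2 and Tmem8 were higher as well. Ndrg1, which hypoxia and differentiation induce, ran from 526 to 594 CPM (median 543) on RT and from 604 to 671 CPM (median 652) on HF, without overlap (log2 fold change 0.23 ± 0.04 SE, adjusted p = 0.000651). NT stood at 654 ± 31.5 CPM (SD, n = 5), and Ndrg1 was the single call among 36 genes of glycolysis and hypoxia (0 lower, median 0.00). Gc, the vitamin D binding protein, measured 14.6 to 17.9 CPM (median 15.8) on RT and 17.5 to 25.5 CPM (median 22.2) on HF (log2 fold change 0.43 ± 0.09 SE, adjusted p = 0.0442), with HF 2 inside the RT range. Gc passed the threshold in 6 of the 17 fits that left out 1 library, those without NT 1, NT 3, NT 5, RT 6, HF 2 or HF 3 (adjusted p up to 0.136 in the others), and missed by limma voom (adjusted p = 0.0627). Cndp2, a cytosolic dipeptidase, was at 65.2 to 73.8 CPM (median 68.4) on RT and 76.9 to 83.4 CPM (median 82.1) on HF (log2 fold change 0.24 ± 0.05 SE, adjusted p = 0.0334), without overlap. Cndp2 missed the threshold without RT 1, RT 2, RT 3, RT 6, HF 2, HF 4, HF 5 or HF 6 (adjusted p up to 0.103). Tmem8 was very even on RT, at 128 to 133 CPM (median 129.8), and higher on HF, at 140.1 to 168 CPM (median 158) (log2 fold change 0.26 ± 0.04 SE, adjusted p = 0.0013), with no overlap and a call in every fit that left out 1 library.

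The remaining calls carry annotation limits or an unspecific role. Rpl35, a protein of the large ribosomal subunit, was lower, at 99.1 to 120.0 CPM (median 105) on RT and 74.0 to 90.1 CPM (median 82.6) on HF, without overlap (log2 fold change -0.39 ± 0.05 SE, adjusted p = 0.000651). Of its transcript windows 30.7% occur in another gene and 66.2% of its exon bases overlap neighbouring genes on either strand, so its reads could not be assigned to it alone. Of 83 ribosomal protein genes it was the single call (0 higher, 1 lower), while 68 were positive with a median of 0.04, and Rpl34 gave 0.15, adjusted p = 0.252. Gm5559, a copy of Gapdh with 88.9% of its windows shared, measured 4.84 to 5.95 CPM (median 5.40) on RT and 6.42 to 8.85 CPM (median 8.02) on HF (log2 fold change 0.55 ± 0.11 SE, adjusted p = 0.0252). Gm5559 missed the threshold without RT 1, RT 5, RT 6, HF 1, HF 5 or HF 6 (adjusted p up to 0.0865). Armc10, an armadillo repeat protein, was lower, at 127 to 140.3 CPM (median 134) on RT and 108 to 123 CPM (median 116) on HF, without overlap (log2 fold change -0.21 ± 0.04 SE, adjusted p = 0.0342). Armc10 passed the threshold in 7 of the 17 fits that left out 1 library, those without NT 1, NT 2, NT 4, NT 5, RT 5, HF 2 or HF 3 (adjusted p up to 0.113 in the others).

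Other programmes of the cell gave no call in the reported fit. None passed among 32 immediate early genes (median -0.02), 47 interferon response genes (30 positive, median 0.04), 31 chemokines, cytokines and NF-kB targets (median 0.03), 37 cell division genes (median 0.05), 46 DNA replication genes (36 positive, median 0.06) or 33 cell cycle inhibitors and p53 targets (median -0.01). The same held for 36 genes of cholesterol synthesis (10 positive, median -0.05), 40 of the ATF4 and unfolded protein response (12 positive, median -0.03) and 12 mitochondrially encoded respiratory chain genes (median 0.01). At an unadjusted p under 0.05 there were 0 interferon, 0 cell division, 2 replication, 2 cholesterol, 2 mitochondrial, 3 cell cycle inhibitor, 6 immediate early, 7 chemokine and 9 ATF4 genes, beside 1216 over all 15196 genes. By DESeq2, 1 gene passed in each of the ATF4, cell cycle inhibitor and chemokine lists and 0 in the others of these. With the replicate number as a block in edgeR, 3 immediate early genes were higher and 1 lower. That block also called 1 gene in each of the ATF4, cell cycle inhibitor, chemokine and mitochondrial lists, and 0 in the others. On HF and RT alone with the block, 4 immediate early genes were higher and 4 lower. These fits called 125 and 298 genes in all.

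For the lists above with 0 calls in the reported fit, the members at an unadjusted p under 0.05 numbered 7 for podocyte identity, 5 for SRF targets, 3 for YAP and TAZ targets, 5 for basement membrane, 2 for integrins, 5 for focal adhesion adaptors and 5 for matrix proteases. They numbered 3 for mechanosensitive channels, 7 for caveolae, 4 for intermediate filaments, 6 for TGF-beta, 4 for EGF receptor ligands and 6 for heparan sulfate. DESeq2 called 2 SRF targets, and 1 gene each among podocyte genes, integrins, EGF receptor ligands and heparan sulfate genes, and 0 in the rest of these lists. With the replicate block, 2 SRF targets, 2 podocyte genes and 1 intermediate filament gene were lower. The block also called 1 integrin and 1 caveolae gene higher, 1 heparan sulfate gene in each direction, and 0 in the rest. By limma voom 1 cell cycle inhibitor passed and 0 members of the others. The wider marker lists gave 1 lower gene each for renal tubule (Cdh6, of 12 tested) and parietal epithelium (Ncam1, of 9), and 0 for mesangium, pericyte and smooth muscle (of 6), endothelium (of 3), immune cells (of 5) and fibroblasts (of 6).

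The flat surface divided the 32 genes. In 22 of them, 14 higher and 8 lower on HF, the fitted NT level was nearer to HF than to RT, as it was in 52.2% of all genes tested. NT lay between the textures in 20 of the 32, beyond them on the high side in 5 and on the low side in 7, beside 25.2% of all genes with NT between. The 32 genes were picked for a gap between HF and RT, which leaves more room for NT between. That share over all genes is therefore not a like background. The 10 genes with NT nearer to RT were Agt, Edn1, Spp1, Hexa, Ncam1, Rpl35, Cndp2, Dkk3, Gc and Lgr4. Genes with NT nearer to HF included Cbs, Dio2, Ndrg1, C1ra, C1s1, C1rb, Adamtsl4, Jag1, Hes1, Cdh6 and Aox3. The differences between the 3 surfaces share their libraries and are not independent, so these places describe levels and no test is attached to them. The adjusted p against NT printed above for single genes come from the same fit across all genes. They reuse the HF or RT libraries by which the genes were picked, and so are not independent evidence. Against NT, 354 genes differed on HF (2.33%) and 603 on RT (3.97%).

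**Figure D4:**
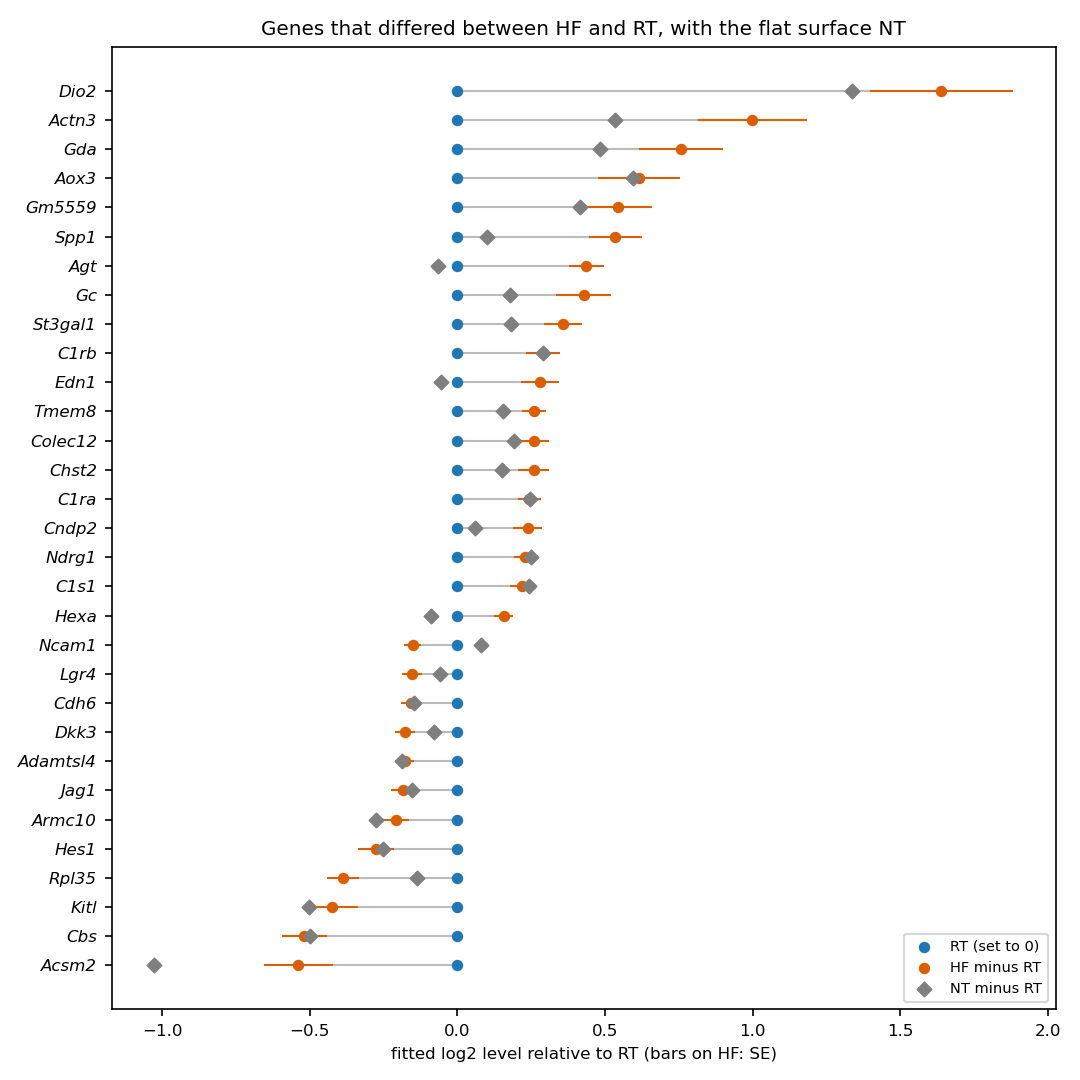
Fitted log2 level relative to RT (horizontal axis, RT set to 0 in blue) of 31 of the 32 genes (rows) on HF (orange, bars SE) and NT (grey diamonds). In 21 rows the diamond lies nearer the orange point, as for Dio2, Cbs and C1ra, and for Agt, Edn1, Hexa and Ncam1 it lies on the far side of RT or beside it.

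The number of genes called depended on the fit. The same 32 genes all passed by DESeq2, which called 84, and 30 of them by limma voom, which called 32. Fitting the HF and RT libraries alone gave 113 calls, of which 30 were among the 32. Dropping the filter on low counts gave 148. Among the genes described without a call, Mme, Podxl, Filip1l, Fhl1, Gpx3, Itgb3, Ampd2, Actn1 and Hpse passed by DESeq2. Of those described below, Ppbp, Cpb2, Ndufa12, Cltrn and Gm10705 also passed by DESeq2. With the HF and RT libraries alone, the uncalled genes Podxl, Filip1l, Fhl1, Sparc, Tnc, St3gal2, Itgb3, Ampd2, Ctsl and Cpb2 passed.

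**Figure D5:**
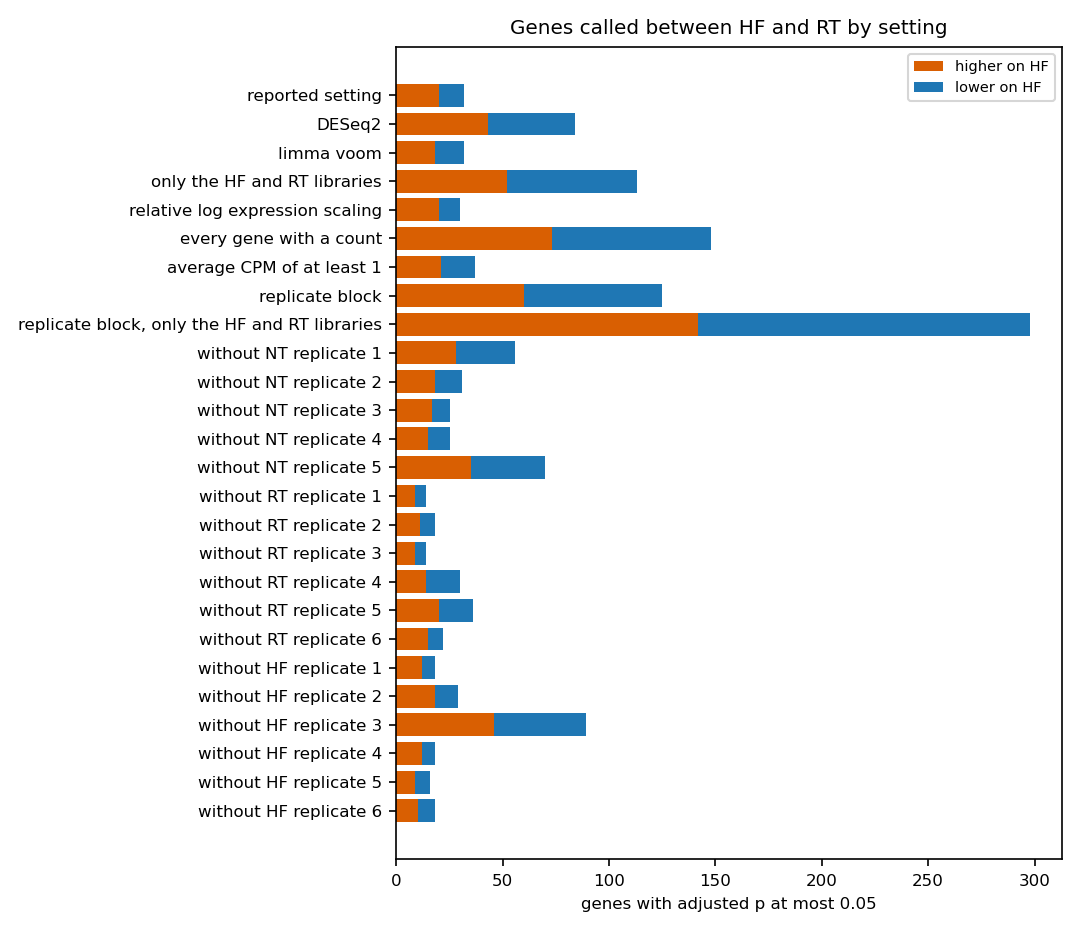
Number of genes with an adjusted p of at most 0.05 (horizontal axis) higher (orange) and lower (blue) on HF under each setting and with each library left out (rows). The reported setting has 32, the fits without 1 library run from 14 to 89, and 298 is the count with a replicate block on the 12 HF and RT libraries.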

How the data were processed

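Poly-A RNA was made into non-directional libraries and read in pairs, per the labels' protocols. The authors deposited raw counts per gene and library for 17 libraries, and all columns were used. The submitters' processing notes name CASAVA, HISAT2 2.0.5, featureCounts 1.5.0-p3 and the build GRCm39, without the role of each; the annotation release and strand setting are not given in the sources used here. No 2 libraries held identical counts. Symbols, transcript windows of 100 bases and exon overlaps on either strand came from GENCODE M21, built on GRCm38, so no gene position was taken from it. Of 56748 identifiers 52073 had a symbol, and those without held 0.580% of the counts.

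The filter filterByExpr, applied by group, kept 15196 genes. edgeR 4.0.16 in R 4.3.3 gave TMM scaling and a robust quasi-likelihood F test, with a mean for each group and all 17 libraries in the fit. Adjustment was Benjamini-Hochberg, over every gene tested, and p-values are two-sided. The common BCV (biological coefficient of variation) was 0.0603. Each SE is the size of the log2 fold change over the root of its F. Separation is the between-surface percentage of variance in log2 CPM (prior count 2).

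Alternatives were DESeq2 1.42.0, limma 3.58.1 (voom), relative log expression scaling, other filters, HF and RT alone, a replicate block and leaving out each library. The members, gene lists and tests were chosen with earlier results of these data known. Named were every gene past the threshold, the 8 smallest p of the block fit outside these (of which Zfp36, Fhl1 and Gpx3 are described), up to 4 members of each list described, all Notch and renin-angiotensin members, and Nphs1, Synpo, Podxl, Wt1, Actn4 and Col4a3. Promoters and motifs came from RefSeq's table (GRCm38.p6). Of the 32 genes past the threshold 1 is not reported here, and a few list members were left out of the named genes and list counts.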

Additional observations from a re-analysis of the deposited data

Results flagged for a closer look

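A library far from the others of its group was looked for in 243 groups of values (the genes described and 4 library measures, in each of 3 groups), and 10 were found, where chance would mark about 1 in 20 groups. Among genes called between HF and RT these were Actn3 in RT 6 (3.25 CPM, the other RT libraries 1.63 to 2.11), Edn1 in RT 1 (23.9 CPM, the others 28.7 to 31.4), Cndp2 in HF 1 (76.9 CPM, the others 81.8 to 83.4), and, on the flat surface, Chst2 in NT 1 (46.3 CPM, the others 39.7 to 41.2) and Lgr4 in NT 5 (401 CPM, the others 457 to 468). Edn1 in RT 1 lay on the side away from HF. Actn3 in RT 6 and Cndp2 in HF 1 lay on the side towards the other texture. Among genes without a call they were Rbpj in RT 1 (120.1 CPM, the others 103 to 109), Fzd5 in RT 5 (28.0 CPM, the others 31.2 to 31.8), Gpx3 in RT 5 (1509 CPM, the others 1266 to 1352) and Col18a1 in HF 6 (2942 CPM, the others 3160 to 3280). The 10 most abundant genes took 4.67% of the counts in HF 5, beside 4.40% to 4.47% in the other HF libraries.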

How the results depend on the processing

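No described gene that passed in the reported fit or in an alternative had the opposite sign in the other. The balance of higher and lower calls did turn round in some settings, as the counts below show. The 32 calls (20 higher, 12 lower) became 84 (43 and 41) by DESeq2, 113 (52 and 61) with HF and RT alone, and 148 (73 and 75) with every gene that had a count; the causes were not tested. Leaving out 1 library gave 14 to 89 calls, 9 to 46 higher and 5 to 43 lower. With limma voom there were 32, with relative log expression scaling 30, and with an average CPM of at least 1 there were 37. Lists with a call numbered 17, and 27 with HF and RT alone, 31 with every gene with a count, 28 with a replicate block and 36 with that block on HF and RT alone. A replicate block gave 125 calls (60 and 65), or 298 (142 and 156) on HF and RT alone, and 31 of the 32 genes passed with it. The sources used here do not say whether equal numbers share a batch, and the reported fit did not pair them. Same-numbered RT and HF libraries correlated from -0.01 to 0.07 in their deviations from the group means. Libraries with different numbers correlated from -0.07 to 0.06. Each of the 12 libraries was set against the 6 of the other texture, and 5 correlated best with their own number. These were RT 1 and HF 1 (0.0745), RT 6 and HF 6 (0.0739), and RT 4. A shared effect of the number was not tested. Zfp36, not called otherwise, had a log2 fold change of 0.30 and an adjusted p of 0.839, and 0.000105 under the block. The separation was 10.7%, 10.5% over 5000 genes (exact p = 0.0281), 20.0% within the replicate block (exact p = 0.03125 over 64 flips) and 10.8% to 12.1% without 1 library. The 20.0% is a share of the variance left after the replicate means were removed, so it cannot be set beside the other shares. Of the 4 library measures 0 differed in the paired permutation as well. Of the 31 genes described, 25 passed in all 8 other settings. Over all described genes and alternatives, 1663 results kept their side of the threshold, 94 passed it newly and 164 lost it. No effect of depth on the calls was tested.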

Other observations

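Some genes changed by 2-fold or more on the fitted scale without passing the threshold, and were singled out after their values were seen as those with an adjusted p under 0.1. Cltrn encodes collectrin, a membrane protein that carries amino acid transporters to the surface. Its values were 0.768, 0.248, 1.79, 0.943, 0.941 and 1.54 CPM in RT 1 to RT 6 and 0.238, 0.225, 0.291, 0.350, 0.247 and 0.517 CPM in HF 1 to HF 6 (log2 fold change -1.74 ± 0.42 SE, adjusted p = 0.0751). All but RT 2 of the RT libraries lay above every HF library, and NT gave 0.433, 0.271, 0.644, 0.471 and 0.00 CPM. Its adjusted p was 0.411 by limma voom, 0.0304 by DESeq2, 0.00196 with every gene that had a count, 0.019 without NT 5 and 0.0298 without RT 2. Cpb2, a carboxypeptidase that restrains the breakdown of fibrin, was at 1.12 to 1.63 CPM (median 1.30) on RT and 0.358 to 0.845 CPM (median 0.608) on HF (log2 fold change -1.09 ± 0.27 SE, adjusted p = 0.0734), without overlap, and at 0.247 to 0.753 CPM (median 0.588) on NT. Ppbp, a platelet chemokine, was at 2.02 to 3.67 CPM (median 2.36) on RT and 3.78 to 10.5 CPM (median 6.23) on HF (log2 fold change 1.24 ± 0.26 SE, adjusted p = 0.0572), with a wide spread among the HF libraries. By DESeq2 the adjusted p was 0.0257 for Cpb2 and 0.00421 for Ppbp, and by limma voom 0.0647 and 0.109.

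Ndufa12, a subunit of respiratory complex I, varied on RT alone. Its RT libraries measured 34.2, 37.3, 48.9, 40.9, 16.3 and 23.3 CPM in RT 1 to RT 6, while the HF libraries measured 14.7, 16.2, 15.9, 18.5, 15.6 and 17.2 CPM and the NT libraries 15.8, 17.5, 15.8, 15.8 and 17.8 CPM. RT 5 thus lay within the range of HF and NT, and RT 3 was the highest. The log2 fold change of HF minus RT was -1.02 (adjusted p = 0.0734 by edgeR, 0.00028 by DESeq2 and 0.247 by limma voom), and 6.29% of its transcript windows occur in another gene. Gm10705, which shares 69.6% of its windows with other genes, chiefly Ube2l3, was at 6.46 to 10.8 CPM (median 9.61) on RT and 0.451 to 4.66 CPM (median 2.75) on HF (log2 fold change -1.75 ± 0.37 SE, adjusted p = 0.0903), and its adjusted p was 0.0147 by DESeq2 and 0.0854 by limma voom.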
